A study of Mus musculus with 9 samples.

Results

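The genes of the IL-33 receptor and of the MyD88 cascade below it were followed in mouse lung: the ligand *Il33*, the receptor chains *Il1rl1* and *Il1rap*, the adaptor *Myd88*, the kinases *Irak4*, *Irak1* and *Irak2*, the inhibitory family member *Irak3*, and the ubiquitin ligase *Traf6*. They were picked by gene symbol and are 9 of the 34638 genes in the table. All 9 passed the filter on low values, a mean FPKM of at least 0.5 over the 9 mice, which left 16831 genes to test. Lung RNA was sequenced from wild-type C57BL/6 mice, 3 in each of 3 groups. PBS mice were challenged with phosphate buffered saline. IL-33 mice received recombinant mouse IL-33 into the trachea, 0.5 µg per mouse on each of days 0 to 3. IL-33+LM8 mice received the same IL-33 and, ahead of it, LM8 at 10 mg/kg into the peritoneum, where LM8 is a code name for an inhibitor of MyD88. For the PBS and IL-33 groups the methods describe females aged 6 to 8 weeks, whose lungs were taken on the day after the last challenge. They do not cover the LM8 group, so its age and sex are not given in the sources used here, nor is what PBS and IL-33 mice were injected with in place of LM8. No group received LM8 without IL-33, so an effect of LM8 on the uninflamed lung and an effect on the response to IL-33 cannot be told apart.

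IL-33 is an alarmin, a cytokine stored in the nucleus of epithelial and other barrier cells and released on damage. It binds ST2, the product of *Il1rl1*, which then recruits the accessory chain encoded by *Il1rap*, and the paired intracellular TIR domains gather MyD88. MyD88 assembles IRAK4 with IRAK1 or IRAK2, and these kinases pass the signal to TRAF6 and from there to NF-kB and MAP kinases. ST2 is carried by type 2 innate lymphoid cells, Th2 cells, mast cells, regulatory T cells, eosinophils and basophils, and the response is known in the lung for eosinophilic inflammation.

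Between 53877663 and 90607218 reads per mouse were counted on genes. Levels are given as FPKM, the read count divided by gene length and by library size, so that they can be set side by side between genes. Changes are log2 fold changes of the counts with standard errors from edgeR's quasi-likelihood test, and a gene is said to have risen or fallen at a Benjamini-Hochberg adjusted p, over all genes tested, under 0.05. The lung label was checked against markers of alveolar and airway epithelium: *Sftpc*, the surfactant protein of alveolar type 2 cells, was at 11030 ± 530 FPKM in PBS mice (SD, n = 3) and *Scgb1a1*, the club cell secretory protein, at 21499 ± 1123. The labels give the mice separate numbers but do not say more on their origin, so p-values measure the spread between these libraries. Whole lung was sequenced, and fewer cells of a type cannot be told apart from less RNA per cell in any value below.

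In IL-33 mice compared with PBS mice, 6 of the 9 genes rose, 1 fell and 2 did not pass the test. Of all genes tested, 54.6% passed it in this comparison, with 27.4% higher and 27.2% lower, so that passing the test was itself common. *Il1rl1* and *Il33* rose most, followed by *Irak3*, and these 3 are the members whose change was also at least 1 on the log2 scale, which 17% of all genes reached, 10.8% higher and 6.24% lower. The median log2 fold change was 0.55 over the 9 genes and −0.01 over all genes. When LM8 was given with IL-33, *Il1rl1* and *Il33* fell and *Il1rap* rose compared with IL-33 alone, while *Myd88*, all 4 IRAK genes and *Traf6* did not pass the test. In that comparison 26.5% of all genes passed, 12.6% higher and 13.9% lower, 5.39% with a change of at least 1 in size, and the medians were −0.04 over the 9 genes and −0.01 over all genes. Compared with PBS mice, 6 of the 9 were still higher in IL-33+LM8 mice, with a median of 0.74, while 29.7% of all genes passed, 16.3% higher and 13.4% lower. A change of at least 1 in size was reached by 3 of these 6 and by 7.33% of all genes. These comparisons share mice, PBS mice entering the first and the last and IL-33 mice the first and the second, so their values are given side by side and no agreement between them is counted.

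**Figure D1:**
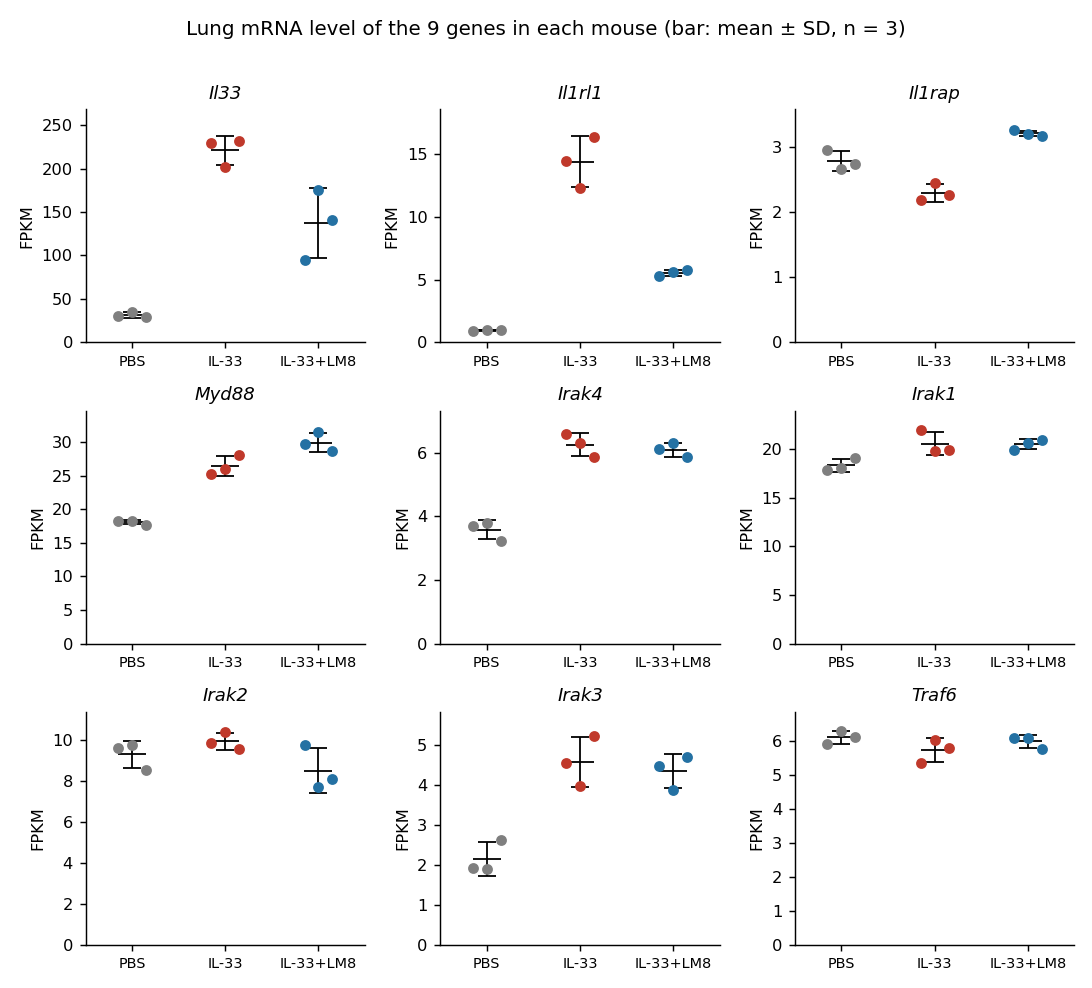
FPKM of the 9 genes (vertical axes, linear and starting at 0) in the 3 groups, with 1 point per mouse and a bar for mean ± SD (n = 3). The PBS mice lie below both other groups for *Il33*, *Il1rl1*, *Myd88*, *Irak4*, *Irak1* and *Irak3*, while the groups overlap for *Irak2* and *Traf6*.

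*Il33* (ENSMUSG00000024810) encodes the ligand. The table places it on the plus strand at chr19:29902514-29938118. No build is named in the table. The submitters' processing notes name mm10, but only 2.10% of the 32643 genes that could be matched start at the same base in a GRCm38 annotation, so the coordinates given for genes are the table's own and must not be mixed with those of the promoters. *Il33* was at 29.9, 35.1 and 29.7 FPKM in PBS mice, at 229.8, 202 and 232 in IL-33 mice, and at 95.1, 175 and 140.3 in IL-33+LM8 mice. The 3 groups did not overlap, and the IL-33+LM8 mice were the most spread of the 3. Its mean was 7.004 ± 0.87 times higher in IL-33 than in PBS mice (SD propagated from both groups), a log2 fold change of 2.81 (standard error 0.09) that stood at the 98.0th percentile of all genes (edgeR, adjusted p = 1.4e-06). What was instilled was protein, so these reads come from the lung's own transcripts.

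With LM8 the mean level of *Il33* was 1.61 times lower than with IL-33 alone, at 137 ± 40.2 against 221 ± 16.7 FPKM. The log2 fold change was −0.69 (standard error 0.20, edgeR adjusted p = 0.043). This call did not hold in several alternatives: the adjusted p was 0.074 when genes with low levels were kept, 0.11, 0.073 and 0.12 without IL-33 mouse 1, 2 or 3 in turn, and 0.094 without IL-33+LM8 mouse 3. The level stayed 4.34 ± 1.34 times that of PBS mice (log2 fold change 2.13, standard error 0.21, edgeR adjusted p = 0.00057). As a description, the IL-33+LM8 mice kept between 33.5% and 75.9% of the mean rise seen with IL-33 alone, with a mean of 55.6%.

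RefSeq places 2 start sites of *Il33*, 20677 bases apart, and the 250 bases before each are shown because they are the regulatory sequence next to the gene with the highest level of the 9 in every group. They were searched on both strands for 4 patterns. The GATA pattern was GATAAG. The AP-1 pattern was TGANTCA, where N is any base. The NF-kB pattern was GGGA followed, after 2 free bases, by TTCC. The STAT6 pattern was TTC followed, after 4 free bases, by its reverse complement GAA. Capitals mark a match, 5′ to 3′ on the plus strand, in GRCm38.p6.
Il33, upstream start, chr19:29924863-29925112: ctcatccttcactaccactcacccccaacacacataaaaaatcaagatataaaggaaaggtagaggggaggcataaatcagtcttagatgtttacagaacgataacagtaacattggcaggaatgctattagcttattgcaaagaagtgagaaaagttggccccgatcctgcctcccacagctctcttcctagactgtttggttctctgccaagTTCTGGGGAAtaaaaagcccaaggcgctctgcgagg
Il33, downstream start, chr19:29945540-29945789: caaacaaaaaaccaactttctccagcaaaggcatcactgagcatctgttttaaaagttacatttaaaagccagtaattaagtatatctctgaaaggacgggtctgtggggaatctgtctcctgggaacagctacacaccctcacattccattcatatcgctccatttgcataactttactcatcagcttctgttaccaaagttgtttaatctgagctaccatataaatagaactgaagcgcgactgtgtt
The first window holds 1 match, to the STAT6 pattern, beginning 36 bases before the start site, and 5.85% of the 32817 RefSeq windows of this length hold at least 1. These 4 patterns were not found in the second window. A match describes letters and not a bound site.

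*Il1rl1* (ENSMUSG00000026069, chr1:40468730-40487308, plus strand in the table) encodes ST2, the chain that binds IL-33. It was the lowest of the 9 in PBS mice, at 0.936, 0.988 and 0.973 FPKM, on 423 to 516 reads per mouse. IL-33 mice had 14.5, 12.3 and 16.4 FPKM, and IL-33+LM8 mice 5.29, 5.61 and 5.73. The groups were far apart relative to their spread, with IL-33+LM8 mice between the other two. The mean was 14.9 ± 2.14 times higher in IL-33 than in PBS mice, and its log2 fold change of 3.89 (standard error 0.11) stood at the 99.2th percentile of all genes (edgeR, adjusted p = 1.1e-06). Compared with IL-33 alone, *Il1rl1* was 2.60 times lower in IL-33+LM8 mice (log2 fold change −1.38, standard error 0.11, edgeR adjusted p = 0.00021). It was the 1 member of the 9 to fall with a log2 change of at least 1 in size, against 3.93% of all genes. It remained 5.74 ± 0.284 times above PBS (log2 fold change 2.53, standard error 0.08, edgeR adjusted p = 9.3e-06). The rise kept under LM8 was 34.1 ± 1.70% (SD, n = 3), between 32.2% and 35.5% in the 3 mice. All 3 calls on *Il1rl1* held without each mouse in turn, with log2 fold changes between −1.47 and −1.26 for IL-33+LM8 against IL-33.

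*Il1rl1* is transcribed from 2 promoters and makes a membrane form that signals and a shorter soluble form that captures IL-33. The table has 1 count per gene, and the gene length implied by count and FPKM differed by at most 1.66% between mice for any of the 9 genes, so the 2 forms cannot be told apart here. The 250 bases before both RefSeq start sites, 10059 bases apart, are shown because the change of this gene was the largest of the 9. Capitals again mark matches, 5′ to 3′ on the plus strand, in GRCm38.p6.
Il1rl1, upstream start, chr1:40429320-40429569: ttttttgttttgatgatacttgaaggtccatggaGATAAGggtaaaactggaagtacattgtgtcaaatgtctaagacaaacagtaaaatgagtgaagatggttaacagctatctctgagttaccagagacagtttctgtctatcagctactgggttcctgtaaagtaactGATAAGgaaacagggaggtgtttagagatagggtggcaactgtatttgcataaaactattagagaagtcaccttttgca
Il1rl1, downstream start, chr1:40439379-40439628: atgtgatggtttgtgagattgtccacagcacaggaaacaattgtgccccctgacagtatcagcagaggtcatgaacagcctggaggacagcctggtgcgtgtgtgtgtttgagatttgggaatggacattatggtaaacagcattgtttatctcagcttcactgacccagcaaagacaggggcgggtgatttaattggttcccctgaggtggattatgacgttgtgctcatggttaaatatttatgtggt
The upstream window holds GATAAG 2 times, beginning 216 and 79 bases before the start site. At least 1 copy is found in 6.55% of all windows and 2 or more in 0.353%. The downstream window gave no match to the 4 patterns. Over the 13 windows of the 9 genes, 1 held the STAT6 pattern, that of *Il33*, and 1 the GATA pattern, that of *Il1rl1*. Of all windows, 5.85% and 6.55% hold these patterns. The share of all windows with any of the 4 was not computed, so these matches do not set the 2 genes apart. The AP-1 and NF-kB patterns, which 6.75% and 1.21% of all windows hold, were not found in these 13.

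*Il1rap* (ENSMUSG00000022514, chr16:26400454-26548867, plus strand) encodes the accessory chain shared by the receptors for IL-33, IL-1 and IL-36. It was at 2.95, 2.67 and 2.75 FPKM in PBS mice, 2.19, 2.45 and 2.26 in IL-33 mice, and 3.26, 3.20 and 3.18 in IL-33+LM8 mice. The order of the groups was the reverse of that of *Il1rl1* between IL-33 and IL-33+LM8 mice, with no overlap. *Il1rap* fell in IL-33 compared with PBS mice by 0.28 on the log2 scale (standard error 0.08, edgeR adjusted p = 0.02), but this call was lost without PBS mouse 1 (adjusted p = 0.062) and without IL-33 mouse 1 or 3 (0.071 and 0.072). It rose with LM8 compared with IL-33 alone, by a log2 fold change of 0.48 (standard error 0.07, edgeR adjusted p = 0.0024), a mean 1.40 ± 0.084 times higher, and this held without each mouse in turn. Against PBS the value was 0.22 (standard error 0.07, edgeR adjusted p = 0.064), which passed with the replicate number as a block (adjusted p = 0.047) and so raised the members past the test from 6 to 7.

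Set against each other per length, the receptor chains changed places. The ratio of *Il1rl1* to *Il1rap* FPKM was 0.317, 0.370 and 0.354 in PBS mice, 6.60, 5.03 and 7.25 in IL-33 mice, and 1.62, 1.75 and 1.80 in IL-33+LM8 mice. By FPKM the accessory chain was thus the higher of the 2 in every PBS mouse and the lower in every other mouse. In IL-33+LM8 mice this order rests on the lengths used, 7138 to 7258 bases for *Il1rl1* and 11775 to 11903 for *Il1rap*. Their read counts there were close, at 2277, 2503 and 3719 for *Il1rl1* and 2315, 2352 and 3399 for *Il1rap*. The mean log2 ratio differed by 4.17 between IL-33 and PBS mice, by −1.85 between IL-33+LM8 and IL-33 mice, and by 2.31 between IL-33+LM8 and PBS mice. Each gave p = 0.1 in an exact two-sided permutation test, the smallest that 3 mice against 3 allow, and 0.12 after Benjamini-Hochberg adjustment over 6 comparisons of this ratio and of the *Irak3* share below.

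**Figure D2:**
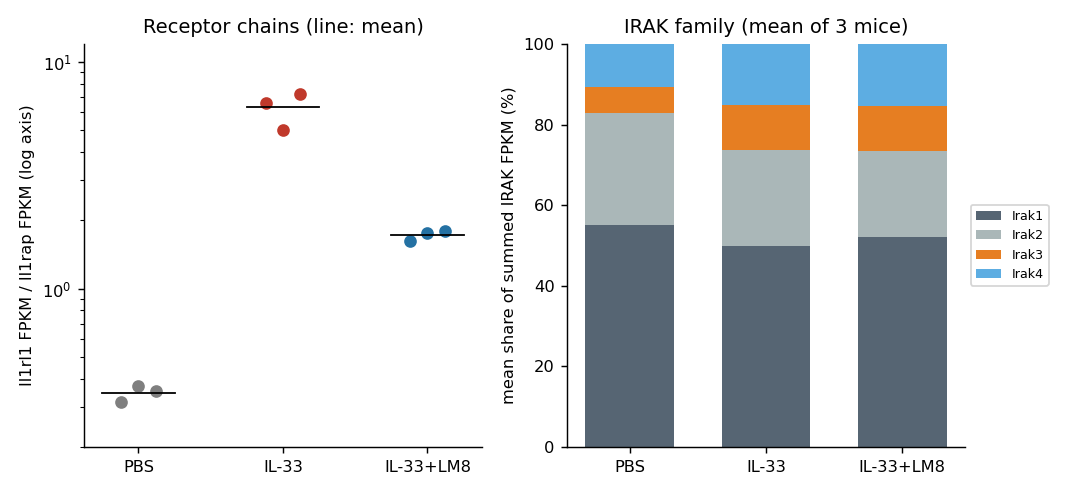
Left, the ratio of *Il1rl1* to *Il1rap* FPKM on a log axis, 1 point per mouse with a line for the group mean: PBS mice lie between 0.317 and 0.370, IL-33 mice between 5.03 and 7.25, and IL-33+LM8 mice between 1.62 and 1.80. Right, the mean share (%) of each IRAK gene in the summed FPKM of the 4, as stacked bars per group from 0: *Irak3* and *Irak4* take larger shares in both IL-33 groups than in PBS mice.

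*Myd88* (ENSMUSG00000032508, chr9:119165000-119169107, minus strand) encodes the adaptor that LM8 is directed against. It was at 18.2, 18.2 and 17.7 FPKM in PBS mice, 25.2, 26.0 and 28.1 in IL-33 mice, and 29.7, 31.4 and 28.7 in IL-33+LM8 mice. All mice of a group lay apart from those of the others, with IL-33+LM8 mice highest. *Myd88* rose 1.46 ± 0.086 times with IL-33 (log2 fold change 0.55, standard error 0.06, edgeR adjusted p = 0.00024) and was 1.66 times above PBS in IL-33+LM8 mice (0.74, standard error 0.06, adjusted p = 0.00026). The difference between IL-33+LM8 and IL-33 mice, 0.18 (standard error 0.07), did not pass the test (edgeR adjusted p = 0.099), although it did when all 9 mice were fitted together (0.046). By the table's own coordinates *Myd88* overlaps *Acaa1a* on the opposite strand over 366 bases and *Slc22a14* on its own strand. *Slc22a14* stayed between 0.103 and 0.382 FPKM in the group means, and *Acaa1a* between 20.4 and 23.6. Whether counting used strand is not given in the sources used here.

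*Irak4* (ENSMUSG00000059883, chr15:94441524-94466187, plus strand) encodes the kinase that starts the cascade. It was at 3.69, 3.81 and 3.24 FPKM in PBS mice, 6.60, 6.30 and 5.88 in IL-33 mice and 6.12, 6.30 and 5.87 in IL-33+LM8 mice. Both IL-33 groups lay above PBS and overlapped each other. *Irak4* rose 1.75 ± 0.178 times with IL-33 (log2 fold change 0.80, standard error 0.09, edgeR adjusted p = 0.00026) and was 1.70 times above PBS with LM8 as well (0.78, standard error 0.09, adjusted p = 0.0012). IL-33+LM8 and IL-33 mice differed by −0.04 (standard error 0.07, edgeR adjusted p = 0.75).

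*Irak1* (ENSMUSG00000031392, chrX:73057520-73067524, minus strand), the kinase that IRAK4 activates, was the most abundant of the family. Its levels were 17.9, 18.1 and 19.1 FPKM in PBS mice, 21.98, 19.8 and 19.9 in IL-33 mice, and 20.0, 20.7 and 20.9 in IL-33+LM8 mice. It passed the test against PBS in both IL-33 groups by little: the log2 fold change was 0.16 with IL-33 (standard error 0.05, edgeR adjusted p = 0.035) and 0.18 with IL-33 and LM8 (standard error 0.05, adjusted p = 0.04). Neither call was stable. The first was lost without PBS mouse 1 or 2 or IL-33 mouse 1 or 3 (edgeR adjusted p of 0.078, 0.086, 0.11 and 0.052). The second was lost without any 1 of the 3 PBS mice (0.1, 0.1 and 0.072) and without IL-33+LM8 mouse 2 or 3 (0.097 and 0.15).

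*Irak2* (ENSMUSG00000060477, chr6:113615428-113671987, plus strand) encodes a family member that sustains the signal to TRAF6. It was at 9.58, 9.73 and 8.51 FPKM in PBS mice, 9.84, 10.4 and 9.53 in IL-33 mice, and 9.72, 7.67 and 8.06 in IL-33+LM8 mice, and all 3 groups overlapped. Its log2 fold changes were 0.09 with IL-33 (standard error 0.08, edgeR adjusted p = 0.33) and −0.22 for IL-33+LM8 against IL-33 (standard error 0.10, adjusted p = 0.13). Without IL-33+LM8 mouse 1, the highest of its group, the latter was −0.33 (adjusted p = 0.019).

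*Irak3* (ENSMUSG00000020227, chr10:119977553-120038035, minus strand) encodes IRAK-M, which restrains signalling from the MyD88 complex and is found chiefly in monocytes and macrophages. It was at 1.91, 1.89 and 2.63 FPKM in PBS mice, 4.54, 3.98 and 5.22 in IL-33 mice and 4.47, 3.86 and 4.70 in IL-33+LM8 mice. Every mouse given IL-33 lay above every PBS mouse, with or without LM8. It rose 2.14 ± 0.511 times with IL-33 (log2 fold change 1.09, standard error 0.17, edgeR adjusted p = 0.0012), and was 2.03 times above PBS with LM8 (1.03, standard error 0.16, adjusted p = 0.0033). IL-33+LM8 and IL-33 mice differed by −0.07 (standard error 0.13, edgeR adjusted p = 0.72). The summed FPKM of 7 markers of monocytes and interstitial macrophages was 81.8 to 90.6 in PBS, 429 to 456 in IL-33 and 202 to 211 in IL-33+LM8 mice, and that of 6 neutrophil markers was 22.4 to 27.9, 86.0 to 108 and 699 to 823. The first sum was mostly *C1qb* and *C1qa*, at 186 ± 8.18 and 160 ± 7.77 FPKM in IL-33 mice. Of those 7, 6 rose and 1 fell with IL-33, against 27.4% and 27.2% of all genes. With LM8, 1 rose and 5 fell compared with IL-33 alone, against 12.6% and 13.9%. Named after their values were seen, *Cx3cr1* fell by 0.64 with IL-33 and *Ly6c2* rose by 0.34 with LM8 (edgeR adjusted p of 0.0064 and 0.035). None of these 13 markers was at 0 in all mice of a group, and their part in the level of *Irak3* was not tested. The gene overlaps *Tmbim4* on the opposite strand over 541 bases, whose group means were between 10.6 and 11.4 FPKM.

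Within the IRAK family, *Irak3* made up 5.78%, 5.63% and 7.85% of the summed FPKM in PBS mice, 10.6%, 9.84% and 12.9% in IL-33 mice, and 11.1%, 10.0% and 11.9% in IL-33+LM8 mice. Its share was higher by 4.67 percentage points with IL-33 and by 4.58 with IL-33 and LM8, each with p = 0.1 in the exact permutation test (0.12 adjusted), while IL-33+LM8 and IL-33 mice differed by −0.084 points (exact permutation p = 1.0). The mean share of *Irak4* was 10.7% in PBS, 15.1% in IL-33 and 15.5% in IL-33+LM8 mice. *Irak1* held 55.0%, 49.8% and 52.1%, and *Irak2* 27.8%, 24.0% and 21.5%.

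*Traf6* (ENSMUSG00000027164, chr2:101508774-101532014, plus strand) encodes the ubiquitin ligase on which the cascade converges. It was at 5.92, 6.30 and 6.14 FPKM in PBS mice, 5.35, 6.05 and 5.81 in IL-33 mice, and 6.10, 6.11 and 5.79 in IL-33+LM8 mice. The groups overlapped in all 3 comparisons. Its log2 fold changes were −0.09 with IL-33 (standard error 0.07), 0.06 for IL-33+LM8 against IL-33 (standard error 0.07) and −0.01 against PBS (standard error 0.06), with edgeR adjusted p of 0.28, 0.57 and 0.88.

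**Figure D3:**
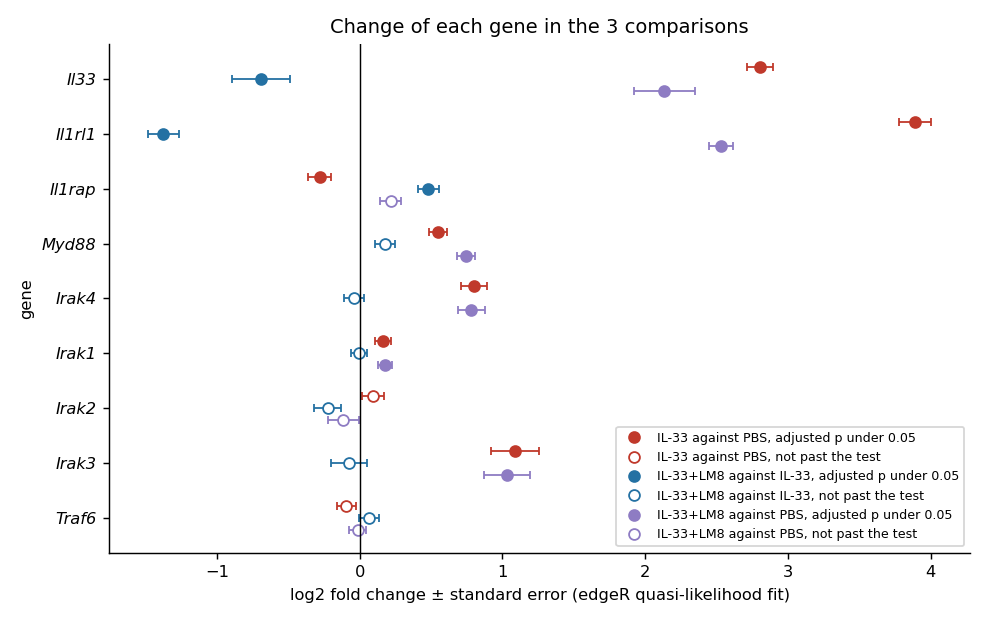
Log2 fold change (horizontal axis) of each gene with its standard error as the bar, from edgeR's quasi-likelihood fit, in the 3 comparisons marked by colour. Filled points have an adjusted p under 0.05: *Il1rl1* reaches 3.89 with IL-33 and −1.38 for IL-33+LM8 against IL-33, while *Irak2* and *Traf6* are open in all 3.

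By level per length, *Il33* stood first in every group and the rest changed order. In PBS mice *Irak1* and *Myd88* followed at 18.3 and 18.0 FPKM and overlapped between mice, then came *Irak2* at 9.28, *Traf6* at 6.12, *Irak4* at 3.58, *Il1rap* at 2.79, *Irak3* at 2.14 and *Il1rl1* at 0.966, each apart from the next. In IL-33 mice *Il1rl1* was in the fourth place at 14.4 FPKM, behind *Myd88* at 26.4 and *Irak1* at 20.6, and *Il1rap* was last at 2.30. In IL-33+LM8 mice *Il1rl1* lay seventh at 5.54 FPKM, above *Irak3* and *Il1rap* and below *Traf6* at 6.00. *Irak4* and *Traf6* overlapped in both IL-33 groups. *Il33* transcripts outnumbered those of *Il1rl1* per length by 32.7 ± 2.63 times in PBS, 15.5 ± 1.17 in IL-33 and 24.6 ± 6.64 in IL-33+LM8 mice. FPKM of 7 of the 9 genes did not overlap between IL-33 and PBS mice, as was so for 63.4% of all genes, and 4 of 9 did not overlap between IL-33+LM8 and IL-33 mice, against 43.2%. Between IL-33+LM8 and PBS mice it was 7 of 9, against 47.3%.

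Markers of cells known to carry ST2 were read in the same lungs. Markers of type 2 innate lymphoid and Th2 cells summed to 18.5 to 20.0 FPKM in PBS, 66.2 to 79.1 in IL-33 and 38.4 to 40.5 in IL-33+LM8 mice, in the same order of groups as *Il1rl1*. That order is not particular to cells known to carry ST2. The sums for B cells and for monocytes and interstitial macrophages had it too. Of the 11 type 2 markers tested, 9 rose with IL-33, against 27.4% of all genes. Compared with IL-33 alone, 8 of these 11 fell with LM8, against 13.9% of all genes. Their most abundant gene by the mean over all 9 mice was *Klrg1*, an inhibitory receptor of activated lymphocytes, at 1.90 ± 0.326, 17.6 ± 1.11 and 9.51 ± 0.649 FPKM. In PBS mice *Rora*, a transcription factor needed for these cells and named after its values were seen, was the highest at 5.97 ± 0.219. It was at 5.76 ± 0.437 in IL-33 mice and did not pass the test (log2 fold change −0.05, standard error 0.07, edgeR adjusted p = 0.53). Eosinophil markers summed to 0.865 to 1.51, 98.3 to 104 and 23.0 to 26.1 FPKM, led by the lipoxygenase gene *Alox15* at 66.0 ± 1.24 in IL-33 mice, and all 5 tested rose with IL-33 and fell with LM8. *Epx*, the eosinophil peroxidase gene, named after its values were seen, was listed at 0 in all PBS mice. Regulatory T cell markers summed to 2.69 to 3.53, 15.4 to 17.6 and 7.12 to 7.68 FPKM, with all 4 rising with IL-33 and all 4 falling with LM8. Their leading gene was *Ctla4*, an inhibitory receptor of T cells, at 8.67 ± 1.21 in IL-33 mice. Some tested markers, named after their values were seen, averaged under 0.5 FPKM in PBS mice and passed the filter through the groups given IL-33. These were *Il5*, *Il13* and *Il9r* (0.081, 0.017 and 0.454), *Prg2*, *Ccr3*, *Il5ra* and *Ear6* (0.176, 0.051, 0.405 and 0.078), and *Foxp3* (0.267). The filter itself favoured a rise with IL-33 for them, so the counts are a description.

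The mast cell markers summed to 33.9 to 34.99, 43.3 to 52.1 and 42.3 to 43.8 FPKM. Of the 4 tested, 2 rose and 2 fell with IL-33, against 27.4% and 27.2% of all genes. *Kit*, a growth factor receptor that is not confined to mast cells, was the most abundant by the mean over all 9 mice and fell by 0.59 on the log2 scale (standard error 0.06, edgeR adjusted p = 0.00014). The others are named after their values were seen. *Hdc*, which encodes the enzyme that makes histamine, was the highest in IL-33 mice, at 29.0 ± 3.09 FPKM against 15.03 ± 0.809 for *Kit*, and rose by 1.72 (standard error 0.09, edgeR adjusted p = 6.4e-06). The mast cell protease gene *Cpa3* rose by 0.95 and *Cma1* fell by 0.99. Basophil markers stayed under the filter, with sums up to 0.382, 1.26 and 1.01 FPKM and *Prss34*, a basophil protease, highest by the mean over all mice. The part of these cells in the level of *Il1rl1* was not tested.

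Epithelial and stromal cells are known sources of IL-33 in the lung. Alveolar type 2 markers summed to 13290 to 14374 FPKM in PBS, 7135 to 7357 in IL-33 and 11706 to 12877 in IL-33+LM8 mice. In this list 4 of 7 fell with IL-33 and 4 rose with LM8 compared with IL-33 alone, against 27.2% and 12.6% of all genes. The marker sum, most of it *Sftpc* at 11030 ± 530 FPKM in PBS mice, and *Il33* went in opposite directions. *Sftpa1*, named after its values were seen, did not pass with IL-33 (log2 fold change 0.16, edgeR adjusted p = 0.087). It was above PBS in IL-33+LM8 mice (0.68, edgeR adjusted p = 0.0048). The airway epithelium sum was 21686 to 23733, 8491 to 9532 and 17112 to 18490.4, most of it *Scgb1a1*, at 21499 ± 1123 in PBS mice. In that list 3 of 4 tested fell with IL-33. *Foxj1*, named after its value was seen, did not pass (log2 fold change −0.03, edgeR adjusted p = 0.87). The alveolar type 1 sum, led by *Ager*, was 1208 to 1311, 647 to 678 and 959 to 1011. In that list 4 of 5 fell with IL-33 and 1 rose, against 27.2% and 27.4% of all genes. The 1 that rose, named after its value was seen, was *Pdpn*, by 0.29 (edgeR adjusted p = 0.0021). Endothelial markers summed to 705 to 861, 488 to 557 and 747 to 821. Of these 6 endothelial markers, 4 fell with IL-33, against 27.2% of all genes, and 2 did not pass. The most abundant over all mice was *Cldn5* of tight junctions, while the cadherin gene *Cdh5*, named after its values were seen, was the highest in PBS mice, at 200.04 ± 17.9 against 176 ± 43.2 FPKM. Fibroblast markers summed to 385 to 433, 398 to 441 and 285 in each mouse. In this list *Npnt*, the most abundant over all mice, fell with IL-33 by 1.34, and the collagen genes *Col1a1* and *Col1a2*, named after their values were seen, rose by 2.15 and 1.49. *Col1a1* was at 149 ± 15.3 FPKM in IL-33 mice, where *Npnt* was at 62.2 ± 0.444. None of these lists had a gene at 0 in all mice of a group. Of the other immune lists, B cell markers summed to 31.9 to 40.9, 114 to 149 and 74.4 to 86.1, T cell markers to 15.96 to 17.4, 23.2 to 26.4 and 19.2 to 25.4, and alveolar macrophage markers to 109 to 115, 123 to 125 and 102 to 117 FPKM. Their leading genes were *Cd79b*, *Trac* and *Car4*. In PBS mice the alveolar macrophage sum was mostly *Car4*, at 80.9 ± 3.39 FPKM, and which cells these reads come from was not tested. The sum hides a split, since 4 of its 7 markers rose and 3, *Car4* among them, fell with IL-33. The part of all these lists in the level of *Il33* was not tested.

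**Figure D4:**
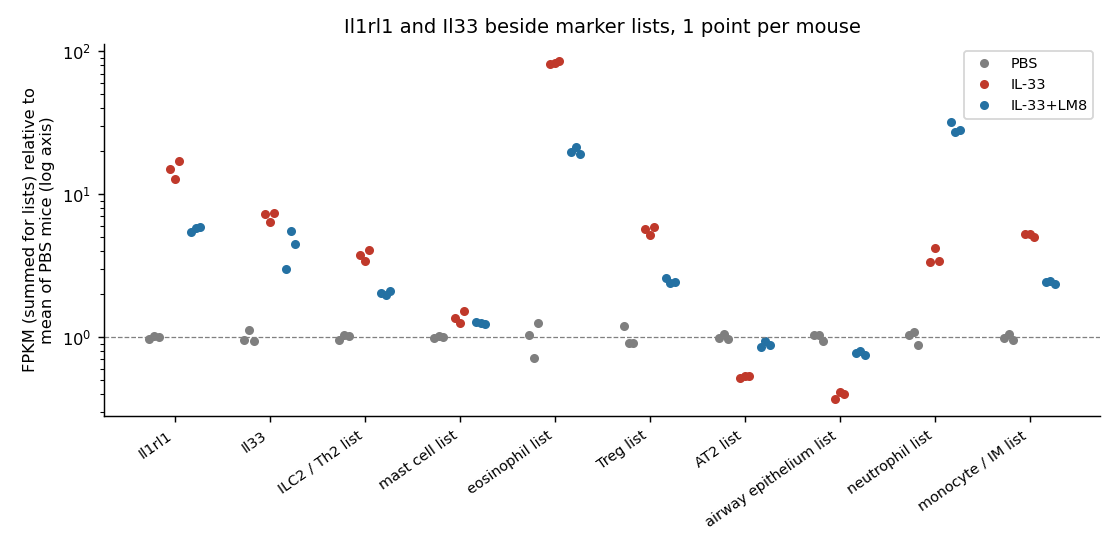
FPKM of *Il1rl1* and *Il33* and summed FPKM of marker lists, divided by the mean of the PBS mice, on a log axis with 1 point per mouse. *Il1rl1* and the eosinophil, type 2 lymphoid, regulatory T cell and monocyte and interstitial macrophage sums are highest in IL-33 mice and lower with LM8. The neutrophil sum is highest in IL-33+LM8 mice, and the epithelial sums lie below PBS.

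Around the 9 genes, 55 further genes of the pathway were listed in 4 groups by role, and 51 of them were tested. With IL-33, 27 of the 51 rose and 7 fell, 34 in all, where 54.6% of all genes passed the test. Of the 51, 13 passed with a change of at least 1 on the log2 scale, all of them upwards. Among all genes 10.8% did so upwards and 6.24% downwards. *Il1r2* and *Socs1*, both among the 13, averaged under 0.5 FPKM in PBS mice and passed the filter through the groups given IL-33. Between IL-33+LM8 and IL-33 mice 18 of the 51 passed the test, 4 higher and 14 lower, against 26.5% of all genes, a number that dropped to 11 without IL-33 mouse 1 and to 11 without IL-33 mouse 3. Against PBS, 23 of the 51 were higher in IL-33+LM8 mice, where 29.7% of all genes passed, 16.3% being higher.

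In the other receptors of the IL-1 family and the TIR adaptors, 6 of 9 tested rose with IL-33 and 1 fell. This stands against 27.4% and 27.2% of all genes. The median log2 fold change of the list was 0.61, against −0.01 over all genes. The largest rise was in *Il1r2*, the decoy receptor for IL-1, from 0.424 ± 0.082 to 9.44 ± 1.95 FPKM (log2 fold change 4.45, standard error 0.23, edgeR adjusted p = 6.8e-06). *Ticam2*, an adaptor of TLR4, rose by 1.83, and *Il18rap*, the accessory chain of the IL-18 receptor, by 1.64. *Il18r1*, its ligand-binding chain, was the 1 that fell, by 0.66, and is named here after its value was seen. With LM8, 1 of the 9 rose and 3 fell compared with IL-33 alone, against 12.6% and 13.9% of all genes. *Il1r2* was at 11.4 ± 1.82 FPKM in IL-33+LM8 mice and did not pass the test there (log2 fold change 0.27, standard error 0.17, edgeR adjusted p = 0.29). The 4 that passed, named after their values were seen, were *Tirap*, which rose by 0.36, and *Il1rl2*, the IL-36 receptor chain, *Ticam2* and *Ticam1*, which fell by 0.70, 0.49 and 0.27.

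Of 21 kinases and proteins of the ubiquitin machinery downstream of TRAF6, 5 rose and 5 fell with IL-33. These 10 of 21 stand against 54.6% of all genes. The median log2 fold change was 0.01, and the changes lay between −0.88 and 0.75. Named after their values were seen, those that rose were *Tifa*, *Ube2n*, *Sharpin*, *Map3k8* and *Ube2v1*, and those that fell were *Peli3*, *Peli2*, *Mapk9*, *Peli1* and *Map3k7*. *Ube2n* and *Ube2v1* encode the conjugating enzyme that works with TRAF6, *Map3k7* encodes TAK1, and the 3 *Peli* genes encode Pellino ligases that act on IRAK proteins. With LM8, 2 of the 21 passed the test against IL-33 alone, where 26.5% of all genes passed. These were *Mapk9*, higher by 0.27, and *Sharpin*, lower by 0.22.

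Of 16 NF-kB subunits and feedback inhibitors tested, 12 rose with IL-33, 1 fell and 3 did not pass, with a median of 0.94, and 7 rose by at least 1. Of all genes, 27.4% rose and 10.8% did so by at least 1. *Socs1*, which restrains cytokine signalling, had the largest fold, 3.67, but was low and uneven, at 0.2498 ± 0.230 FPKM in PBS and 3.29 ± 1.51 in IL-33 mice (standard error 0.69, edgeR adjusted p = 0.0032). *Nfkbie*, an IkB protein, rose by 1.69, *Tnfaip3*, which encodes the deubiquitinase A20 that acts on TRAF6, by 1.61, the subunit *Nfkb2* by 1.36, and *Zc3h12a*, an RNase that degrades cytokine transcripts, by 1.20. In IL-33+LM8 mice, 2 of the 16 were higher and 7 lower than in IL-33 mice, against 12.6% and 13.9% of all genes. The median was −0.14. *Tnfaip3* was at 4.26 ± 0.105, 13.1 ± 0.789 and 10.6 ± 0.061 FPKM in PBS, IL-33 and IL-33+LM8 mice and fell by 0.31 between the last 2 (standard error 0.06, edgeR adjusted p = 0.0081). The 2 higher, named after their values were seen, were *Nfkbia*, the IkB protein alpha, by 0.57, and the nuclear IkB gene *Nfkbiz*, by 0.65, which had fallen by 0.39 with IL-33. Compared with PBS, 12 of the 16 were higher in IL-33+LM8 mice, against 16.3% of all genes, with a median of 0.74.

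Among the other alarmins and their receptors, the receptors moved and the ligand tested did not pass. *Il17rb*, a chain of the IL-25 receptor, was at 0.570 ± 0.112, 23.2 ± 1.71 and 6.99 ± 0.077 FPKM in PBS, IL-33 and IL-33+LM8 mice. It rose by 5.32 on the log2 scale (standard error 0.16, edgeR adjusted p = 1.1e-06) and fell by 1.73 with LM8 compared with IL-33 alone (standard error 0.07, adjusted p = 3.3e-05). *Il7r*, whose product serves the receptors for IL-7 and TSLP, rose by 2.34 and fell by 1.29 with LM8. *Crlf2*, the TSLP receptor chain, rose by 1.95 (standard error 0.50), with PBS mice spread at 5.99 ± 4.64 FPKM, and fell by 0.89 with LM8. The next 2 genes are named after their values were seen. *Il17ra* rose by 0.97 with IL-33, and in IL-33+LM8 mice it was within 0.02 of that (standard error 0.11, edgeR adjusted p = 0.91). *Tslp* itself was at 1.58 ± 0.385, 1.25 ± 0.514 and 1.17 ± 0.099 FPKM and passed in none of the 3 comparisons (edgeR adjusted p of 0.45, 0.88 and 0.25). *Il25* has no row in the table used.

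**Figure D5:**
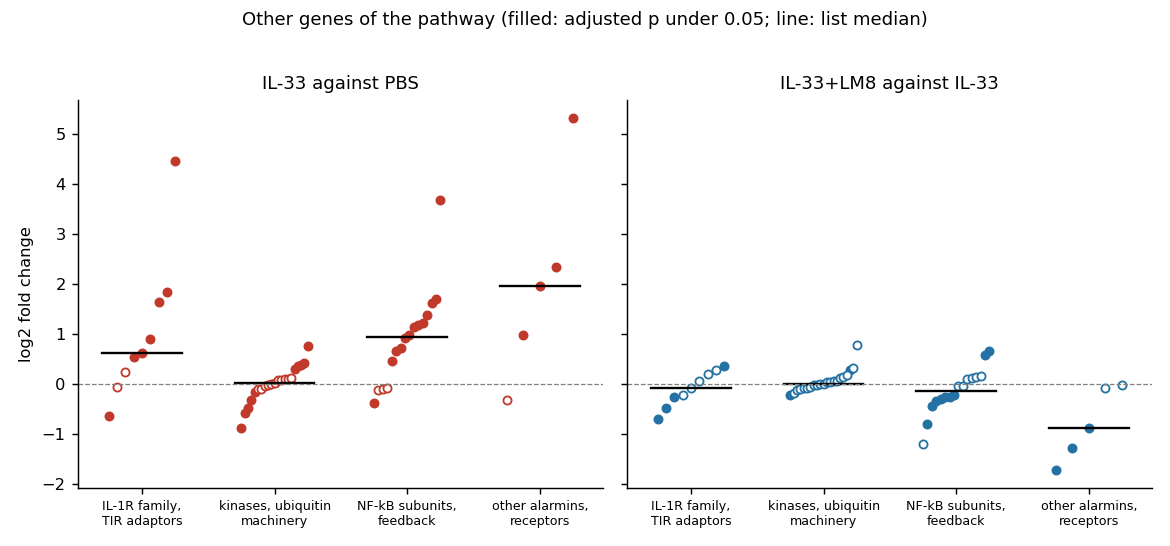
Log2 fold change (vertical axis) of each tested gene in 4 lists of the pathway, with 1 point per gene and a line at the list median, for IL-33 against PBS (left) and IL-33+LM8 against IL-33 (right). Filled points have an adjusted p under 0.05. On the left the NF-kB list has a median of 0.94 and the kinase list one of 0.01, and on the right the median is −0.14 for the NF-kB list.

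The genes whose profile over the 9 mice was most like that of *Il1rl1*, by Pearson's correlation of log2(FPKM + 1) among 16830 genes, were *Icos*, *Ptpn22*, *Tgfbi*, *Il17rb* and *Cd84*, all with r of 0.998. *Icos* was at 0.768 ± 0.052, 6.76 ± 0.828 and 3.29 ± 0.126 FPKM. For *Il33* they were *AI662270*, *Eif4a1*, *Taldo1*, *Tfpi2* and *Sting1*, with r between 0.995 and 0.997. For *Myd88* they were *Qsox1*, *Casp4*, *Pigr*, *Serpina3f* and *Tnip1*, with r between 0.985 and 0.991. *Pigr*, which carries antibodies across epithelium, was at 20.9 ± 1.97, 69.4 ± 0.336 and 94.2 ± 11.4 FPKM. The 9 mice fall into 3 groups, so that these correlations mostly restate the group means and are given as a description without a test.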

How the data were processed

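Total lung RNA of 9 mice underwent paired-end sequencing (Illumina NovaSeq). For each mouse the authors deposited raw read counts and FPKM per gene, made by a sequencing company's pipelines. The submitters' processing notes name HISAT2 2.0, StringTie 1.3.0, Bowtie 0.12.2 and mm10, without saying which step used which. The variance between libraries of a group was 24.2 or more times what sampling gives, and no library was taken for a copy. Of the symbols, 281 rows share theirs with another row.

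Counts were scaled by TMM in edgeR 4.0.16 under R 4.3.3 and fitted by quasi-likelihood, separately for the 6 mice of each comparison. Genes entered where FPKM averaged 0.5 or more across the 9 mice and the 6 had any count. Standard errors are the log2 fold change divided by the square root of the F statistic. The deposited FPKM gave levels, ratios and shares, and entered limma 3.58.1 on log2(FPKM + 1) and log2(FPKM + 0.1) as alternatives. DESeq2 1.42.0, median-of-ratios size factors, all genes with a count, a minimum FPKM of 5, 1 fit of all 9 mice, a block for the replicate number and omission of each mouse were the others. The fits were tested on simulated counts. A test of transcript forms by implied gene length was planned and not made, since that length was the same in all mice to within 1.66%. RefSeq promoter windows are the 250 bases before each start site.

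Deviations of same-numbered PBS and IL-33+LM8 mice from their group means correlated at 0.31, 0.32 and 0.67. Some mice with different numbers were as alike: PBS mouse 3 with IL-33 mouse 1 at 0.65, and IL-33 mouse 1 with IL-33+LM8 mouse 3 at 0.67. The labels state no pairing, so the main fits have no block and the replicate block is an alternative only. The 9 genes, the 4 pathway lists and the 15 cell type lists were chosen with earlier results of these data known. Named are all 9 genes, in each pathway list up to 5 genes past the test with a log2 change of at least 1 in size, the most abundant gene of each cell type list, and the 5 genes most like *Il33*, *Il1rl1* and *Myd88*. Others are marked as chosen after their values were seen.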

Additional observations from a re-analysis of the deposited data

How the results depend on the processing

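Requiring a log2 fold change of at least 1 in size, an alternative chosen after seeing the data, left 3 of the 7 members past the test with IL-33, 1 of 3 for IL-33+LM8 against IL-33 and 3 of 6 for IL-33+LM8 against PBS, and 13, 2 and 9 of the 34, 18 and 23 pathway genes. Without single mice the pathway count for IL-33+LM8 against IL-33 ranged from 11 to 16, and the difference in *Irak3* share between these groups ranged from −0.71 to 0.80 percentage points, being 0.40 without IL-33+LM8 mouse 2 and 0.80 without IL-33 mouse 3.

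Values near 0 changed sign. For IL-33+LM8 against IL-33, the log2 fold change of *Irak1* was 0.0030 with median-of-ratios factors, 0.0029 with DESeq2, 0.012 with all genes, 0.0037 at a minimum FPKM of 5 and 0.012 with all 9 mice, and between −0.028 and 0.049 without single mice (0.049 without IL-33 mouse 1 and 0.022 without IL-33+LM8 mouse 1). *Irak4* ranged from −0.069 to 0.0039 without single mice (0.0039 without IL-33 mouse 1 and 0.00045 without IL-33+LM8 mouse 3), and *Irak3* from −0.17 to 0.042. For IL-33+LM8 against PBS, *Traf6* was 0.0032 with all genes and ranged from −0.029 to 0.014 without single mice (0.014 without PBS mouse 2 and 0.013 without IL-33+LM8 mouse 3). Of all alternatives of single-gene values, 328 left the call and its direction as they were, 27 ended a call, 4 added one and 13 turned the sign. The cause was not tested.

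The replicate block left 5, 2 and 7 members past the test in IL-33 against PBS, IL-33+LM8 against IL-33 and IL-33+LM8 against PBS, and 32, 14 and 28 pathway genes. In the first, it ended the calls on *Il1rap* (adjusted p = 0.065) and *Irak1* (0.069), and in the second that on *Il33* (0.062), by edgeR. The labels pair no mice in any of the 3 comparisons. In the first 2, same-numbered deviations correlated at −0.42, 0.28 and −0.28, and at −0.38, 0.22 and −0.40. Mice there did not correlate best with their own number throughout. In the third, the gain of *Il1rap* was the 1 call changed among the 9 genes. The lowest count of any of the 9 genes in a mouse was 423, and each group had 3 mice. Which of the 2 limits the precision more was not tested.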
